A study of Mus musculus with 6 samples.

Results

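Protocadherins and the giant atypical cadherins were compared between wild-type mouse embryonic stem cells and cells that lack E-cadherin. The genes were taken by name: every protein-coding gene whose symbol starts with Pcdh, together with Fat1 to Fat4, Dchs1, Dchs2 and Celsr1 to Celsr3. This gave 78 of the 55401 genes in the table of counts. They comprised 14 alpha, 22 beta and 21 gamma protocadherins of the gene clusters on chromosome 18, 12 solitary protocadherins and 9 giant cadherins (4 Fat, 2 Dachsous and 3 Celsr genes). All cells belonged to V6.5, an established embryonic stem cell line. One group was wild type (WT), and the other was Cdh1-/-, with both copies of the gene for E-cadherin disrupted (the knockout). Each genotype had 3 RNA libraries, named A, B and C and listed in that order throughout, with total counts from 18020719 to 23381942. Whether the knockout was a single clone, and whether the libraries came from separate cultures, is not given in the sources used here, so p-values measure the spread between these libraries.

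Cadherins are adhesion proteins with repeated extracellular domains that bind calcium. Classical cadherins such as E-cadherin anchor to actin through catenins, whereas protocadherins lack the catenin-binding tail and are best known for giving neurons surface identities. In the alpha and gamma clusters a separate promoter and first exon for each isoform is spliced to constant exons that all isoforms of the cluster share, and the beta genes are mostly single exons. Fat and Dachsous proteins bind each other between neighbouring cells and act in growth control and tissue polarity. Celsr proteins, the relatives of fly Flamingo, are seven-pass receptors at the centre of planar cell polarity.

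Promoter sequences were available for 16 of the 78 genes in RefSeq (GRCm38.p6), none of them in the clusters. Of the genes described below as lower in the knockout, Fat3 and Pcdh18 had an entry, and Celsr2 is shown beside them as a gene that was not called. The 250 bases before the annotated start are given 5′ to 3′ on the gene's strand, with CpG dinucleotides in capitals. Their positions are chr9:16502055-16502304 on the minus strand for Fat3, chr3:49757317-49757566 on the minus strand for Pcdh18 and chr3:108415580-108415829 on the minus strand for Celsr2.
Fat3: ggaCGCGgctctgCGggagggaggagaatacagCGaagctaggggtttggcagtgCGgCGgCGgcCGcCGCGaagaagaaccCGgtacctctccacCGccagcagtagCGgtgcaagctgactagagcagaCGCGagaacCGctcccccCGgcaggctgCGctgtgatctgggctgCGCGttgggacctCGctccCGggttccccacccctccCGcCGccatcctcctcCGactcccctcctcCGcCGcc
Pcdh18: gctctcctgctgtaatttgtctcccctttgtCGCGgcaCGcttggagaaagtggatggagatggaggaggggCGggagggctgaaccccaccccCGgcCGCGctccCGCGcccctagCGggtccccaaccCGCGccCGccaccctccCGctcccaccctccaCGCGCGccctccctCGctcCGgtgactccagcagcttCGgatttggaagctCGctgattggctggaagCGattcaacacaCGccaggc
Celsr2: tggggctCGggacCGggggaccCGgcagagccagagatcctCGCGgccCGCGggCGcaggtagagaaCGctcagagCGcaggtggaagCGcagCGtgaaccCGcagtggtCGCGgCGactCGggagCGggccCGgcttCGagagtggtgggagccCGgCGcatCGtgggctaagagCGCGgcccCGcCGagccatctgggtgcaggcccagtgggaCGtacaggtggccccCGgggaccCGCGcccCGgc
Fat3 had 27 CpG dinucleotides in this window, Pcdh18 had 23 and Celsr2 had 32, against a median of 6 over all 32851 promoters of the same length. Pcdh10 and Pcdh17, which had hardly a count, held 22 and 21. At least 10 CpG were found in 12 of 17 entries of these genes and in 37.8% of all promoters. Pcdh9 was entered more than once among the 17, with largely overlapping windows of 18 CpG each, so nearly the same sequence was counted again. The core of the TCF/LEF motif, CTTTGA on either strand, occurred in 1 of the 17 entries, that of Pcdh7, and in 13.8% of all promoters. The entry for Fat3 starts upstream of the gene as counted here. The entries for Fat1 and Fat2 start 14761 and 24307 bases inside the genes as counted here and may not be their main promoters.

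How the reads were counted bears on every clustered gene. None of the 572 genes whose exon bases all lie under another gene on the same strand had a count in any library, and neither did any of the 368 genes lying wholly under a gene of the opposite strand, although 58.5% of all genes had counts. Such zeros arise when reads over more than 1 gene are dropped without regard to strand. The level per length was therefore computed on the exon bases that no other gene covers on either strand, in CPM (counts relative to the library size after TMM scaling) per kb. Pcdhga10 had 0 such bases, Pcdha4 had 3, and 1 of the 2 genes with the symbol Pcdha11 (ENSMUSG00000102206.5) had 54, so their zeros carry no information. For alpha and gamma genes the counts came almost wholly from the isoform's own exon, and the constant exons were not counted.

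**Figure D1:**
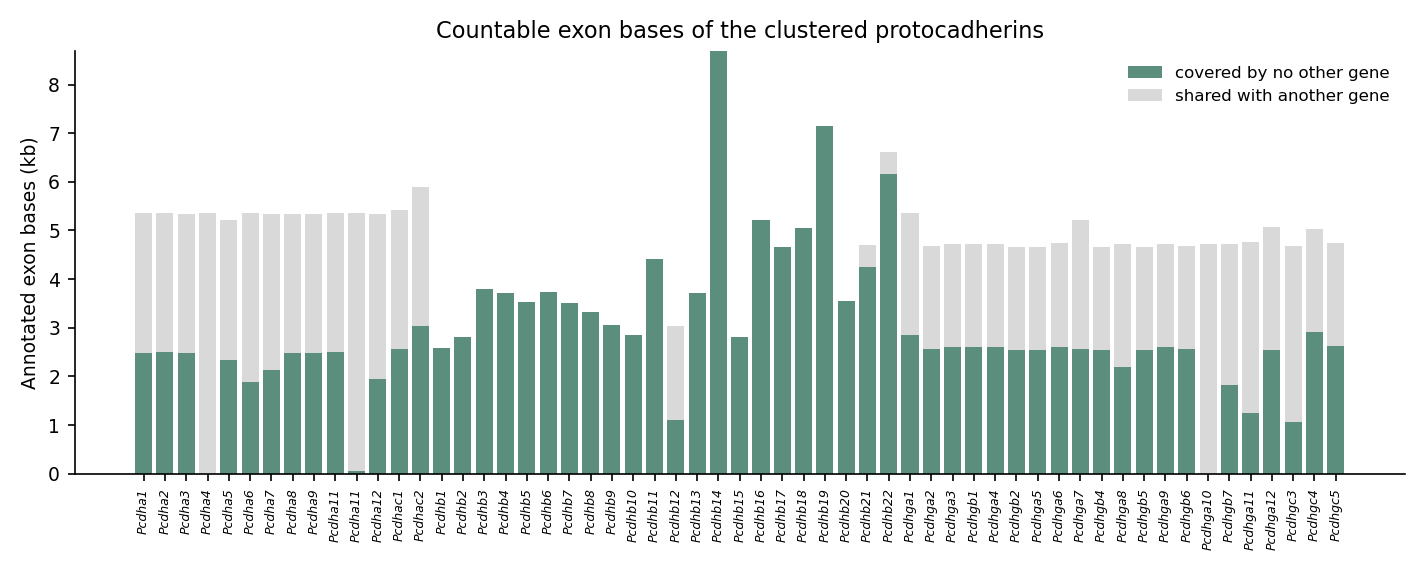
Annotated exon bases (kb) of the 57 clustered protocadherins in the order of the chromosome, split into bases that no other gene covers and bases shared with another gene on either strand. The shared constant exons make up a large part of every alpha and gamma gene, and Pcdhga10 has 0 bases of its own; the symbol Pcdha11 stands for 2 genes.

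The targeted gene was read first as a check of the labels. Cdh1 stood at 537 to 571 CPM in the WT libraries and at 166 to 183 CPM in the knockout libraries, so every library matched its label. All 6 embryonic stem cell markers that were read, Pou5f1, Nanog, Sox2, Zfp42, Esrrb and Utf1, were present, with a summed level of 2399 to 2724 CPM in WT against 2369 to 3097 CPM in the knockout.

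Many of these genes had few or no counts. Counts were sufficient for a test in 32 of 78 genes: 20 gamma, 1 alpha and 1 beta protocadherin, 3 solitary protocadherins, 3 Fat genes, 1 Dachsous gene and 3 Celsr genes. The filter kept genes with about 10 counts or more in at least 3 libraries. Of the 46 untested genes, 3 are those that could hardly be counted. Of the other 43, 34 had at most 6 counts in every library, a floor taken as indistinguishable from 0, and 9 of them had 0 counts throughout. Relative to the total counts of the libraries, before TMM scaling, this floor was 0.257 to 0.333 CPM. Fat1 was by far the most counted, with 68.2% ± 3.08 of all counts on the 78 genes in WT and 64.7% ± 0.769 in the knockout (SD, n = 3 each).

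In edgeR's quasi-likelihood test, 4 of the 32 tested genes passed an adjusted p of 0.05. Celsr1 and Pcdhgc3 rose in the knockout, and Pcdh1 and Fat3 fell. These 4 are 12.5% of the tested genes, against 13.3% of all 17325 genes tested, a share near the background. The split was 2 higher (background 7.6%) and 2 lower (background 5.71%). At an unadjusted p under 0.05 there were 6, against a background of 26.7%. The libraries of the 2 genotypes did not overlap for 8 of the 32, against a background of 30.7%. The median log2 fold change was 0.09 over the 32 genes and -0.01 over all tested genes.

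**Figure D2:**
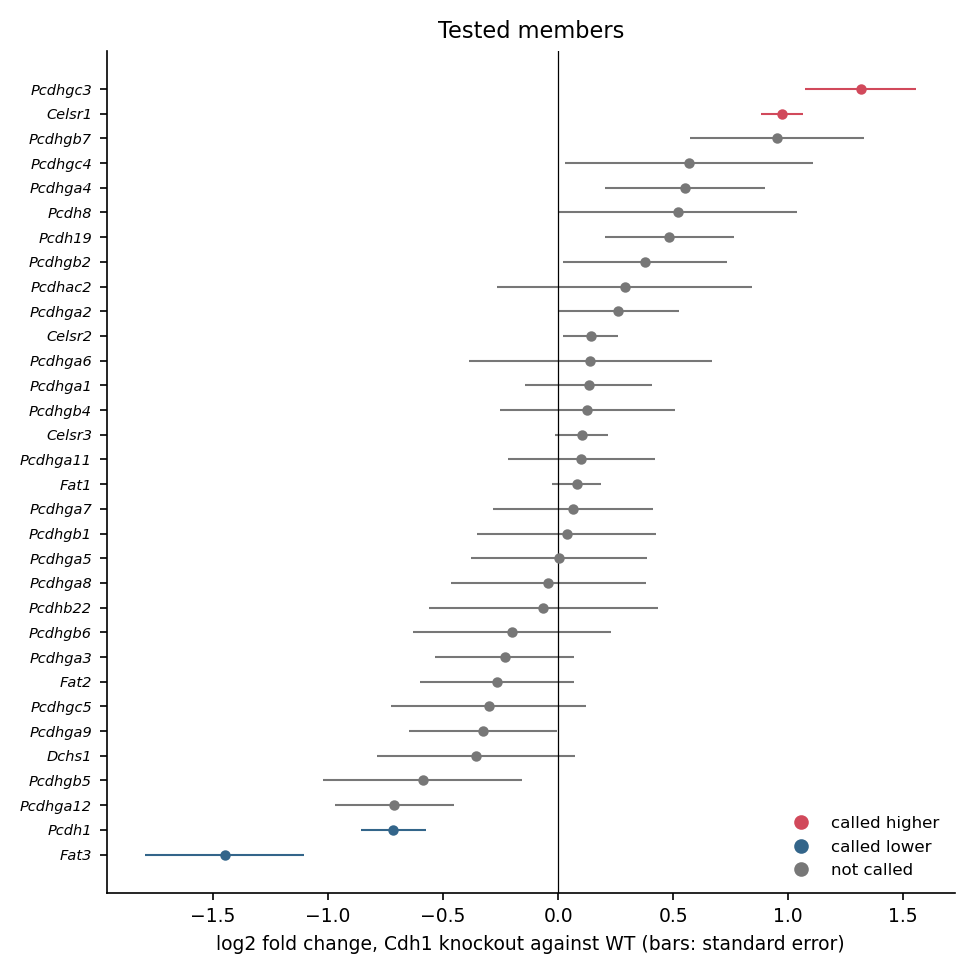
Log2 fold change (knockout against WT) of the 32 tested genes, with the standard error as bars and the called genes in colour. Pcdhgc3 at 1.32 and Celsr1 at 0.97 lie at one end, Fat3 at -1.45 and Pcdh1 at -0.72 at the other; most of the remaining bars reach or lie near 0.

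Celsr1 was the clearest change among the planar polarity receptors. Celsr1 (ENSMUSG00000016028.11, minus strand of chromosome 15, 85898929 to 86034203, GRCm38) was at 47.0, 47.1 and 49.8 CPM in WT libraries against 90.9, 91.2 and 101 CPM in knockout libraries. The 3 knockout libraries all lay far above the 3 WT libraries. The level rose from 48.0 ± 1.58 CPM to 94.2 ± 5.50 CPM (SD, n = 3 each), which on the log2 scale is 0.97 (standard error 0.09, adjusted p 8.5e-06 by edgeR). Over 16 alternative fits it ranged from 0.93 to 1.01 and passed the threshold in each. In such bulk RNA, more cells of a type and more RNA per cell cannot be told apart.

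The other two Celsr genes did not pass the test. Celsr2 was at 27.4, 31.7 and 30.5 CPM in WT libraries against 32.1, 36.8 and 29.9 CPM in knockout libraries, and the genotypes overlapped. Its log2 fold change was 0.14 (standard error 0.12, edgeR adjusted p 0.495). Celsr3, the member best known from axon guidance, was at 27.0, 25.3 and 23.5 CPM in WT libraries against 28.1, 27.0 and 26.2 CPM in knockout libraries. Its log2 fold change was 0.10 (standard error 0.11, edgeR adjusted p 0.630), also with overlapping libraries. Whether the change of Celsr1 differed from theirs was not tested. Per kb of exon, Celsr1 stood at 4.25 ± 0.140 CPM in WT, above Celsr2 at 2.82 ± 0.208 CPM and Celsr3 at 2.19 ± 0.150 CPM. In the knockout it stood at 8.33 ± 0.486 CPM, with Celsr2 at 3.11 ± 0.335 CPM and Celsr3 at 2.36 ± 0.0832 CPM. The order of the 3 genes was the same in both genotypes.

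Among the Fat genes a large gap in level separated Fat1 from the rest. Fat1 (ENSMUSG00000070047.14, chromosome 8, 44935447 to 45052257), which regulates actin at cell contacts, was at 462, 380 and 351 CPM in WT libraries against 377, 432 and 454 CPM in knockout libraries. The libraries of the genotypes were interleaved. On the log2 scale its change was 0.08, standard error 0.11 (edgeR adjusted p 0.686). Per kb it held 27.5 ± 3.96 CPM in WT against 29.1 ± 2.74 CPM in the knockout, above each of the other tested members.

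Fat3, a member expressed in neurons and retina, fell. Fat3 (ENSMUSG00000074505.6, minus strand of chromosome 9, 15910189 to 16501285) was at 2.61, 2.73 and 3.40 CPM in WT libraries against 1.11, 0.786 and 1.31 CPM in knockout libraries, that is 54 to 68 counts against 18 to 26. Every knockout library lay below every WT library. On the log2 scale the change was -1.45 (standard error 0.35, adjusted p 0.0115 by edgeR). The call needed WT replicate C, in whose absence the adjusted p was 0.0577, and knockout replicate B, in whose absence it was 0.0620. Per kb the WT level was only 0.155 ± 0.0227 CPM, so the fall took place at the low end of the family.

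Fat2 was also scarce, with 1.89 to 3.20 CPM in WT against 1.55 to 2.45 CPM in the knockout, and it was not called (log2 fold change -0.27, edgeR adjusted p 0.674). Fat4, the partner of Dachsous in tissue polarity, had 0 counts in all 6 libraries. Dchs1, its ligand, was at 3.51 CPM in WT replicate A and at 1.11 to 1.61 CPM in the other 5 libraries. Its log2 fold change of -0.36 (edgeR adjusted p 0.661) rested on that 1 library and was 0.34 without it. WT replicate A also had the highest summed level of 8 fibroblast markers, at 44.8 CPM, against 19.9 to 34.2 CPM in the other libraries. Its part in the level of Dchs1 was not tested. Dchs2 had at most 12 counts in a library and was not tested.

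**Figure D3:**
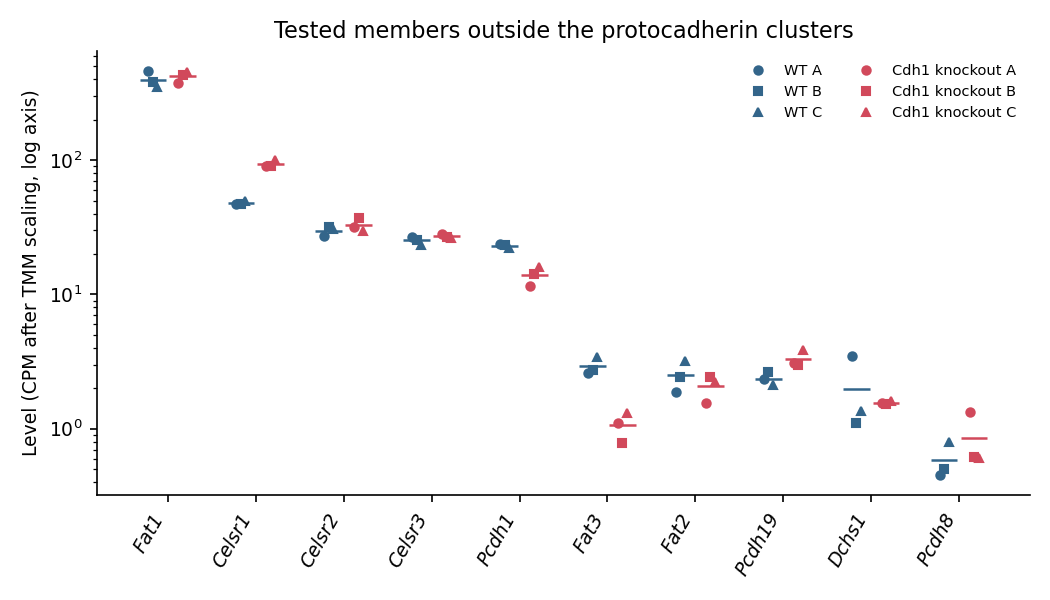
Level (CPM, log axis) of the 10 tested genes outside the protocadherin clusters in each library, WT in blue and knockout in red, with horizontal bars at the means. The genotypes separate for Celsr1, Pcdh1, Fat3 and Pcdh19 and are interleaved for Fat1; WT replicate A stands apart for Dchs1.

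Of the 12 solitary protocadherins, which are not arranged in clusters and are known mainly from neural and epithelial adhesion, 3 were tested and 1 was called. Pcdh1 (ENSMUSG00000051375.15, minus strand of chromosome 18, 38185914 to 38212053), a protocadherin of airway and other epithelia, was at 23.6, 23.3 and 22.1 CPM in WT libraries against 11.6, 14.3 and 15.9 CPM in knockout libraries. The genotypes were well separated, with knockout replicate A the lowest. The level fell from 23.0 ± 0.810 CPM to 13.96 ± 2.19 CPM (SD, n = 3 each), which on the log2 scale is -0.72 (standard error 0.14, adjusted p 0.00324 by edgeR). The 16 alternative fits gave values from -0.81 to -0.60, all past the threshold. Pcdh1 made up most of the counts of this subfamily.

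Pcdh19, an X-linked gene whose human counterpart is mutated in an epilepsy, was at 2.34, 2.63 and 2.1 CPM in WT libraries against 3.10, 2.97 and 3.83 CPM in knockout libraries. The libraries did not overlap, but the log2 fold change of 0.48 (standard error 0.28) had an edgeR adjusted p of 0.301. Pcdh8, also called arcadlin or PAPC, lies on chromosome 14, where knockout genes were raised as a whole by a median log2 value of 0.54 to 0.55 in each knockout library. Its log2 fold change was 0.52 (standard error 0.52, edgeR adjusted p 0.579), and -0.02 after the chromosome's median was removed. It was counted at 10 to 24 reads per library, and knockout replicate A alone stood above the rest at 1.33 CPM.

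Among the 9 untested solitary genes Pcdh18 is singled out, a choice made after its values were seen. It had 8, 9 and 16 counts in WT libraries and 0, 2 and 0 counts in the knockout, so all knockout libraries lay at or under the floor. Set against that floor, the knockout was at least 1.80-fold lower than the mean of the WT libraries. In a fit without the low-count filter it was called (edgeR adjusted p 0.0151, background 8.63% of 32417 genes). The other 8, Pcdh7, Pcdh9, Pcdh10, Pcdh11x, Pcdh12, Pcdh15, Pcdh17 and Pcdh20, had at most 10 counts in any library.

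Of the clustered genes, the alpha protocadherins were nearly absent. Of 14, only Pcdhac2 was tested, a C-type isoform at the end of the array whose promoter lacks the regulatory element of the other isoforms. It had 8 to 25 counts per library. Its level was 0.360, 1.16 and 0.600 CPM in WT libraries against 1.38, 0.524 and 0.706 CPM in knockout libraries, and the ranges overlapped in part (log2 fold change 0.29, edgeR adjusted p 0.796). The other 13 had at most 2 counts in any library, and 7 of them had 0 throughout, Pcdha4 and the uncountable Pcdha11 included.

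The beta protocadherins were nearly as low. Of 22 genes only Pcdhb22, the last of the array, was tested, at 0.505 to 0.700 CPM in WT against 0.442 to 0.612 CPM in the knockout (log2 fold change -0.06, edgeR adjusted p 0.957). The other 21 reached at most 12 counts in a library, in Pcdhb14, and 16 of them never exceeded the floor. Summed over the cluster, the beta genes gave 2.09 ± 0.347 CPM in WT against 2.26 ± 1.01 CPM in the knockout, and the alpha genes 0.913 ± 0.244 CPM and 0.908 ± 0.515 CPM (SD, n = 3 each). Both sums overlapped between the genotypes.

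The gamma cluster was the active one. Apart from Pcdhga10, which could not be counted, all of its 20 genes were tested, from Pcdhgc4 at 0.459 ± 0.170 CPM to Pcdhga1 at 4.14 ± 0.851 CPM in WT. The summed level was 44.8, 39.1 and 44.9 CPM in WT libraries against 37.6, 54.2 and 51.8 CPM in knockout libraries. Knockout replicate A was the lowest and replicates B and C the highest, so the genotypes overlapped. No test was made of this sum.

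Pcdhgc3 was the 1 gamma gene that was called. Pcdhgc3 (ENSMUSG00000102918.1, plus strand of chromosome 18, 37806410 to 37841873) is the first of the C-type isoforms, which in other tissues are expressed more evenly from cell to cell than the A and B types. Its level was 2.88, 3.03 and 3.55 CPM in WT libraries against 5.86, 8.04 and 9.64 CPM in knockout libraries. Every knockout library lay above every WT library, and replicate C was the highest. It rose from 3.15 ± 0.352 CPM to 7.84 ± 1.90 CPM (SD, n = 3 each), which on the log2 scale is 1.32 (standard error 0.24, adjusted p 0.00197 by edgeR). Over 16 alternative fits the value ranged from 1.15 to 1.49, always past the threshold. A gene on the opposite strand, BC037039, lies over 1513 bases of its exons and had 2 to 6 counts itself. If reads over more than 1 gene were dropped, the counts of BC037039 do not show its level over the shared bases. Only 1055 exon bases of Pcdhgc3 were free of other genes.

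The share of Pcdhgc3 in the counts of the gamma genes among the 78 was 6.43% in WT replicate A (exact 95% binomial interval 4.99% to 8.14%), 7.75% in B (5.97% to 9.87%) and 7.92% in C (6.23% to 9.88%). In the knockout it was 15.6% in A (12.9% to 18.5%), 14.8% in B (12.9% to 16.9%) and 18.6% in C (16.3% to 21.1%). Such limits describe the error of counting alone, because reads copied by PCR are not independent molecules, and they are too narrow if both mates of a pair were counted. With every count divided by 2, the highest upper limit in WT was 10.9% and the lowest lower limit in the knockout was 11.9%. The mean share was 7.37% ± 0.813 in WT and 16.3% ± 1.99 in the knockout (SD, n = 3 each). It was described after the values were seen and not tested.

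**Figure D4:**
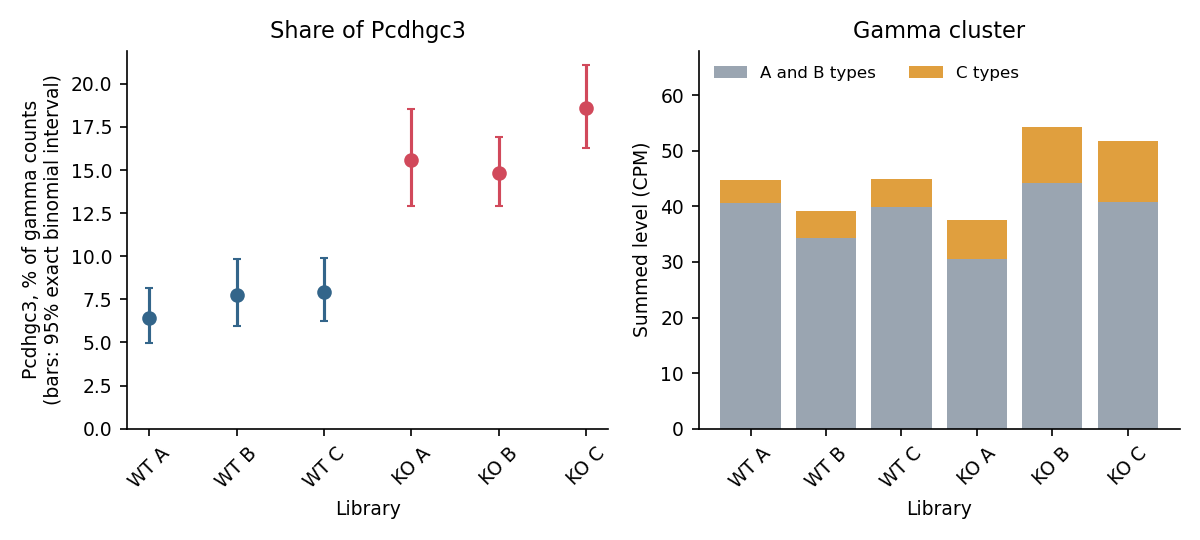
Left, Pcdhgc3 as a percentage of the counts of the gamma genes among the 78 in each library, with exact 95% binomial intervals. Right, summed level (CPM) of the A and B types and of the C types among these genes. The share lies between 6.43% and 7.92% in WT and between 14.8% and 18.6% in the knockout, while the A and B sums of the genotypes overlap.

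The neighbouring C types did not pass the test. Pcdhgc4 was at 0.459 ± 0.170 CPM in WT against 0.673 ± 0.251 CPM without E-cadherin (log2 fold change 0.57, standard error 0.54, edgeR adjusted p 0.557). Pcdhgc5 was at 1.06 ± 0.157 CPM and 0.858 ± 0.171 CPM (log2 fold change -0.30, edgeR adjusted p 0.710). At 6 to 24 counts a library, differences of this size were not detectable for either. Summed, the 3 C types stood at 4.23 to 5.05 CPM in WT against 7.13 to 10.9 CPM in the knockout. Pcdhgc3 made up 63.8% to 70.3% of the C-type counts in WT libraries and 80% to 88.0% in knockout libraries.

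The 17 tested A and B types, which are chosen stochastically in neurons, gave no call. Their sum was 38.2 ± 3.39 CPM in WT against 38.5 ± 7.16 CPM in the knockout (each n = 3, SD). Together with Pcdhgc4 and Pcdhgc5 their log2 fold changes ran from -0.71 to 0.95 with a median of 0.06. Of these 19 genes 16 overlapped between the genotypes, while 30.7% of all tested genes did not overlap. The standard errors of the 19 lay between 0.26 and 0.54, which limits the changes that were detectable.

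The 3 genes without overlap pointed in different directions. Pcdhga12, the last A type before the C types, was at 4.23, 3.94 and 3.95 CPM in WT libraries against 2.27, 2.40 and 2.72 CPM in knockout libraries (log2 fold change -0.71, standard error 0.26, edgeR adjusted p 0.0890). Pcdhgb7 was at 0.855, 1.01 and 1.45 CPM in WT libraries against 1.60, 2.62 and 2.17 CPM in knockout libraries (log2 fold change 0.95, standard error 0.38, edgeR adjusted p 0.120). Both missed the threshold after adjustment over all genes. Pcdhga2 was at 2.97, 2.53 and 2.85 CPM in WT libraries against 3.32, 3.28 and 3.43 CPM in knockout libraries (log2 fold change 0.26, edgeR adjusted p 0.583).

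The remaining A and B genes that averaged 50 counts or more were interleaved. Pcdhga1 was at 5.09, 3.44 and 3.90 CPM in WT libraries against 3.10, 4.72 and 5.80 CPM in knockout libraries. Pcdhga3 was at 3.02, 2.53 and 3.85 CPM in WT libraries against 2.49, 2.14 and 3.38 CPM in knockout libraries. In neither gene did a genotype stand apart. Pcdhga4 was at 1.53, 2.42 and 2.1 CPM in WT libraries against 1.77, 3.23 and 3.83 CPM in knockout libraries. Pcdhgb2 was at 2.34, 2.37 and 2.30 CPM in WT libraries against 2.87, 4.59 and 1.61 CPM in knockout libraries. For Pcdhgb2 the WT libraries were close together and the knockout libraries lay on both sides of them.

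Single libraries were low in the neighbours Pcdhga8 and Pcdhgb5. Pcdhga8 was at 3.20, 1.21 and 3.10 CPM in WT libraries against 1.16, 2.93 and 3.18 CPM in knockout libraries. Pcdhgb5 was at 3.87, 1.77 and 3.55 CPM in WT libraries against 0.774, 3.10 and 2.17 CPM in knockout libraries. WT replicate B and knockout replicate A were the lowest of their genotype in both genes. The log2 fold changes were -0.04 for Pcdhga8 and -0.59 for Pcdhgb5, with edgeR adjusted p of 0.968 and 0.429. The 11 gamma genes with fewer than 50 counts on average were Pcdhgb1, Pcdhga5, Pcdhga6, Pcdhga7, Pcdhgb4, Pcdhga9, Pcdhgb6, Pcdhgb7, Pcdhga11, Pcdhgc4 and Pcdhgc5. They had means from 0.459 to 2.36 CPM in WT and from 0.673 to 2.46 CPM in the knockout.

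**Figure D5:**
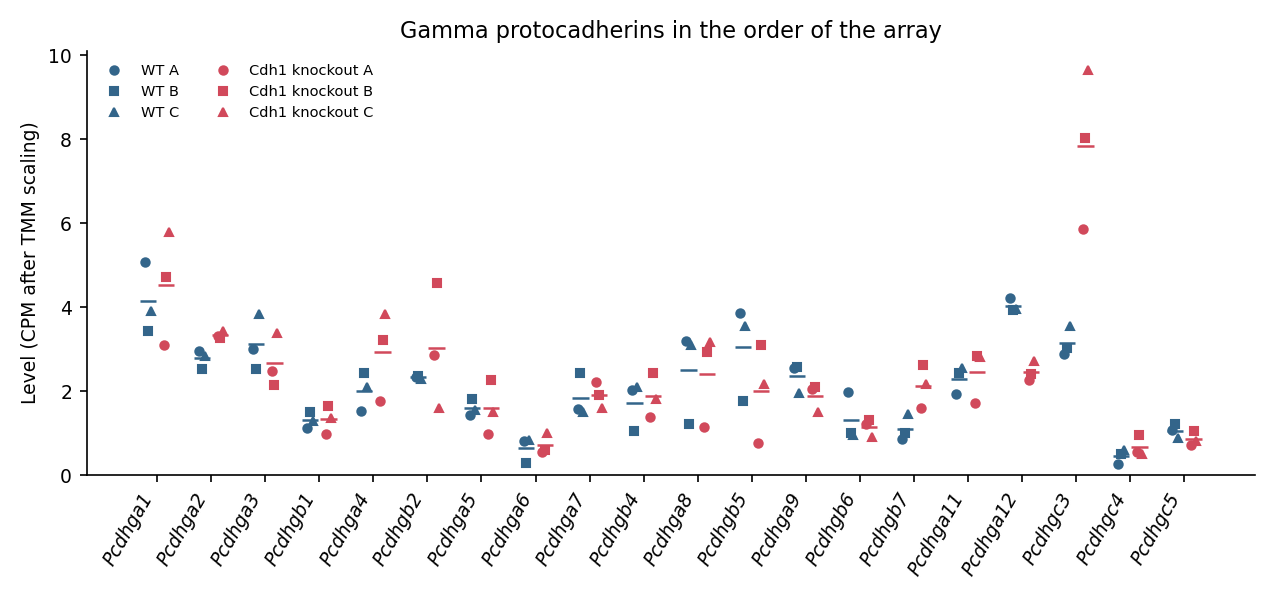
Level (CPM) of the 20 tested gamma protocadherins in each library, in the order of the array, WT in blue and knockout in red, with horizontal bars at the means. Pcdhgc3 has the widest gap between the genotypes, from 3.55 CPM at most in WT to 5.86 CPM at least in the knockout.

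Ranked by level per kb of countable exon in WT, Fat1 came first, then Celsr1 at 4.25 ± 0.140 CPM, Pcdhgc3 at 2.99 ± 0.334 CPM, Celsr2 at 2.82 ± 0.208 CPM, Pcdh1 at 2.72 ± 0.0958 CPM and Celsr3 at 2.19 ± 0.150 CPM (SD, n = 3 each). Pcdhgc3, Celsr2 and Pcdh1 lay within their spread of each other. In the knockout Celsr1 at 8.33 ± 0.486 CPM and Pcdhgc3 at 7.44 ± 1.80 CPM were within their spread, and Pcdh1 at 1.65 ± 0.259 CPM had dropped below Celsr3. With all annotated exon bases as the length, the WT level of Pcdhgc3 was 0.673 CPM per kb, below Celsr3, so its place depends on leaving out the shared bases.

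Genes that work with these cadherins were read from 4 lists. Of 64 listed partners 63 were tested, and 12 were called (19% of those tested, background 13.3%), 7 higher and 5 lower in the knockout. With the medians of chromosomes 1 and 14 removed, 7 were called, against a background of 9.85% in that fit. The lists were drawn up with earlier results of these data known and are no independent evidence.

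The planar polarity list, the partners of Celsr proteins, had 3 of 15 tested genes higher (background 7.6%) and 2 lower (background 5.71%). Ptk7, a receptor-like pseudokinase of this pathway, rose from 136 ± 1.01 to 225 ± 22.2 CPM (a log2 fold change of 0.73, edgeR adjusted p 8.1e-05). Prickle3 rose from 4.51 ± 1.03 to 11.1 ± 1.49 CPM (a log2 fold change of 1.30, edgeR adjusted p 0.000762). Both are core or associated parts of the machinery in which Celsr1 acts. Fzd3, the frizzled receptor that acts with Celsr3 in axon guidance, rose by 0.55 on the log2 scale, but it lies on chromosome 14 and its value was 0.01 after that chromosome's median was removed (edgeR adjusted p 0.975). Ankrd6, the vertebrate Diversin, had a log2 fold change of -0.60 (edgeR adjusted p 0.00576). Intu had one of -0.37 at an edgeR adjusted p of 0.0431. That call was kept in 1 of the 6 fits on 5 libraries, the one without knockout replicate A, while the other 5 gave -0.39 to -0.30. It was also lost without the low-count filter (adjusted p 0.107) and, with its value still -0.37, when the medians of chromosomes 1 and 14 were removed (adjusted p 0.0529). Vangl2, a core component of the complex, did not pass (log2 fold change -0.21, edgeR adjusted p 0.176). It lies on chromosome 1, where the median log2 value of the genes was -0.33 to -0.29 in the knockout libraries.

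The regulators of protocadherin promoters had 1 of 20 genes higher (background 7.6%) and 2 lower (background 5.71%). Ctcf, which folds the clusters and selects their promoters, had a log2 fold change of 0.03 (edgeR adjusted p 0.897). Dnmt3b, the DNA methyltransferase known to methylate the clustered promoters in early embryos, fell from 95.4 ± 4.60 to 71.9 ± 0.839 CPM (a log2 fold change of -0.41, edgeR adjusted p 0.00511). Its relative Dnmt3a fell from 213 ± 10.6 to 143 ± 19.3 CPM (a log2 fold change of -0.57, edgeR adjusted p 0.00147). Wapl, which releases cohesin, had a log2 fold change of 0.43, but it lies on chromosome 14 and stood at -0.11 after removal of its median. Smchd1, a repressor of the clusters, did not pass (log2 fold change -0.26, edgeR adjusted p 0.0629).

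Among cytoplasmic and shedding partners, 2 of 19 were higher (background 7.6%) and 1 lower (background 5.71%). Cyfip1, a subunit of the WAVE complex that protocadherins recruit, rose from 129 ± 9.82 to 198 ± 17.8 CPM (a log2 fold change of 0.61, edgeR adjusted p 0.000510). Ptk2b, the kinase Pyk2 that alpha and gamma protocadherins bind, had a log2 fold change of 0.74, yet it lies on chromosome 14 and had 0.19 after removal of its median. That call was also lost in 5 of the 6 fits that left out a library, with adjusted p from 0.0519 to 0.100, all but the one without knockout replicate B. With all libraries kept, limma-voom did not call Ptk2b either (log2 fold change 0.67, limma-voom adjusted p 0.0518). Abi2, of chromosome 1, had -0.44, and -0.13 after removal. It was lost without WT replicate B (adjusted p 0.0667) and without knockout replicate B (adjusted p 0.0705). Of 9 partners of Fat and Dachsous, Lix1l rose from 20.1 ± 1.96 to 31.1 ± 0.873 CPM (a log2 fold change of 0.63, edgeR adjusted p 0.00233). None fell past the threshold. In edgeR 4 of the 9 had an unadjusted p under 0.05 (background 26.7%). Besides Lix1l these were lower in the knockout: Enah at -0.33, Amotl1 at -0.23 and Lix1 at -1.36. Enah lies on chromosome 1, and Lix1 had 14 to 28 counts in WT libraries against 6 to 10 in the knockout. The kinase gene Fjx1 had a log2 fold change of -0.13 (edgeR adjusted p 0.800).

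Markers of other cell types moved between the genotypes alongside Celsr1 and Pcdhgc3. All 7 tested endoderm markers of 8 listed were called higher in the knockout (background 7.6%). Among them, Foxa2 had 4 to 6 counts in WT libraries against 12 to 32 in knockout libraries. It passed the low-count filter only through the knockout, so its call adds nothing independent. For Dab2 the libraries of the genotypes overlapped. The list summed to 153 to 219 CPM in WT against 413 to 767 CPM in the knockout, with knockout replicate C the highest. Most of this sum was Lama1, at 125 to 174 CPM in WT and 339 to 622 CPM in the knockout. Afp, a defining gene of visceral endoderm, had at most 0.10 CPM. Of 9 tested neural markers 3 were called lower, Pax6, Nes and Map2 (background 5.71%), and none was called higher. The neural list summed to 219 to 268 CPM in WT against 196 to 217 CPM in the knockout. Dcx was at 0 in 5 libraries. With the medians of chromosomes 1 and 14 removed, Map2, of chromosome 1, was not called (log2 fold change -0.59, edgeR adjusted p 0.125), whereas Gata4 and Sox7, of chromosome 14, stayed called at 1.16 and 1.64. Of 5 tested fibroblast markers Col1a1 was called lower (background 5.71%). The part of these genes in the changes of Celsr1, Pcdhgc3, Pcdh1 and Fat3 was not tested.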

How the data were processed

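RNA of 6 libraries, 3 WT and 3 Cdh1-/-, was measured after TRIzol isolation and a directional library kit, per the labels' protocols. Raw, unscaled counts for every gene were deposited by the authors as 1 table, with exon coordinates and lengths. The submitters' processing notes name cutadapt 2.10, STAR 2.7.5b, featureCounts 2.0.1 and GRCm38; the strand setting is not given in the sources used here. Symbols, biotypes and coordinates came from GENCODE M21, and 55141 of 55401 genes received a symbol. Among counts from 1 to 10, 78.1% to 83.1% of a library's values were even, as when both mates of a pair are counted, so the floor was set to 6 counts.

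Counts were fitted in R 4.3.3 with edgeR 4.0.16: filterByExpr (smallest count 10, smallest total 15), TMM, and a quasi-likelihood test over all 17325 genes kept, with genotype as its only term. P-values were adjusted by Benjamini-Hochberg and called under 0.05. The common coefficient of variation was 0.137. Genotypes were taken from the sample titles. Alternatives were RLE, upper quartile or no scaling factors, other filters, DESeq2 1.42.0, limma-voom (limma 3.58.1), the replicate letter as a block, counts divided by 2, removal of the medians of chromosomes 1 and 14, and leaving out each library. In 4 simulations of 17325 genes with 200 changed, 68.5% of 2-fold and 93.2% of 4-fold changes were recovered. On average 6.42% of calls were false, and at most 10.1% in a single simulation. The changed genes were drawn at random from all tested genes, so this recovery is not that of the low-count genes described here. They were also fewer than the 2307 called in the data.

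Genes were named by rule: every tested gene was described, by each library's value where it was called or had a mean of at least 50 counts and otherwise by range, and every called partner gene was named. Ctcf, Vangl2, Smchd1, Fjx1, Enah, Amotl1 and Lix1 were added after their values were seen. The genes and lists were chosen with earlier results of these data known.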

Additional observations from a re-analysis of the deposited data

How the results depend on the processing

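Of 499 log2 fold changes of single genes over 16 alternative fits, 463 kept their direction and side of the threshold, 2 lost the call and 34 changed sign, in 14 genes, none of them called. Celsr1, Pcdhgc3 and Pcdh1 were called in all 16. The number of genes called lower was 1 to 2 in the fits that each left out a library, and 1 when either WT replicate C or knockout replicate B was absent, where Fat3 was lost. The number of called partner genes was 7 with the medians of chromosomes 1 and 14 removed, where Pcdh8 stood at -0.0201, against 12 with all genes as measured; over all genes the calls went from 2307 to 1706, and Intu (chromosome 3) lost its call with its fold unchanged. Pcdhgb1 was at -0.00041 with upper quartile factors and -9.7e-05 with library totals. Pcdhga5, at 0.00 in the reported fit, was at -0.0341 and -0.0343 with these, -0.00665 with the stricter filter, -0.0377 in limma-voom and -0.0036 with counts divided by 2. Leaving out 1 library gave Dchs1 from -0.64 to 0.34, Pcdhac2 from -0.19 to 0.84, Pcdhb22 from -0.16 to 0.0936, Pcdhga1 from -0.0721 to 0.34, Pcdhgb1 from -0.14 to 0.21, Pcdhgb2 from -0.0520 to 0.69, Pcdhga5 from -0.33 to 0.25, Pcdhga6 from -0.19 to 0.37, Pcdhga7 from -0.0508 to 0.31, Pcdhgb4 from -0.13 to 0.30, Pcdhga8 from -0.37 to 0.28, Pcdhgb6 from -0.38 to 0.22, Pcdhga11 from -0.0111 to 0.30. With the filter dropped, 3 genes were called lower, Pcdh18 among them. For the genes that changed sign, the cause was not tested. Most clustered genes had too few counts for any statement, and in 19 of 22 tested ones the WT level per kb moved by more than 1 SD between libraries when all exon bases were used.

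A replicate block on the letters A, B and C called 2 genes higher and 2 lower, the same counts as without it, 17 partner genes against 12, and 2686 of all genes against 2307; Pcdhga5 stood at -0.0562. Whether libraries of the same letter were handled together is not given in the sources used here. The correlations of same-letter deviations were 0.165, -0.149 and 0.396 for A, B and C. WT replicates A and C correlated best with the knockout library of their own letter, and WT replicate B with knockout replicate A (0.261). A batch shared by letter was not tested.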

Other observations

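Pcdhgb8, which sits between Pcdhga11 and Pcdhga12, was left out of the 78 genes because GENCODE M21 classes it as a polymorphic pseudogene. It had 57, 50 and 43 counts in WT and 45, 51 and 62 in the knockout replicates, in the range of its neighbours and with overlapping genotypes. Gm26672, a transcript on the opposite strand that overlaps Pcdhga10, Pcdhgb7, Pcdhga11 and Pcdhga12, had 6, 14 and 10 counts in WT and 7, 8 and 14 in the knockout.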
